A study of Homo sapiens with 20 samples.

Results

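The sites described here are places away from gene starts where CTCF and cohesin were detected together in every ChIP-seq peak list of M14 human melanoma cells. The members were chosen by the presence of a called peak. A peak of the set 1 WT CTCF list became a member when it overlapped, by at least 1 bp, a peak in each of the other 15 lists and its midpoint lay more than 1 kb from every annotated transcript start. This left 29821 distal sites out of 86248 CTCF peaks on chromosomes 1 to 22 and X.

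M14 is an established melanoma line, and all of its cells here carried a doxycycline-inducible shRNA against STAG2. WT cells received no doxycycline, and STAG2-KD cells were cultured with it, for 5 days per the labels of set 1. STAG1, STAG2, CTCF and SMC1A were each precipitated from both conditions in 2 sets of libraries, which gives 16 peak lists and 2 lists per group. The sets differed in chromatin extraction, in size selection and in the threshold of the peak calls, so WT and STAG2-KD were compared within a set. The labels do not say whether the sets came from separate cultures, so the spread between them may be technical. Within a set and condition the antibodies shared 1 input library. The level of the STAG2 protein was not analysed here.

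CTCF is a zinc finger protein that binds a non-palindromic DNA motif, so that each bound site points in a direction along the chromosome. Cohesin is a ring of SMC1A, SMC3 and RAD21 with either STAG1 or STAG2 as a further subunit. It is known to extrude DNA loops and to stop at CTCF, preferentially where a pair of CTCF motifs point towards each other.

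The motifs at sites on which the results turn are given first, as read from the reference genome. Each run holds the 11-base core of the best CTCF motif match in capitals with 20 bases on either side in lower case, 5′ to 3′ on the motif strand, in hg19 coordinates. The first 5 are intergenic sites among the 8 with the highest mean rank over the 16 lists, at chr19:34269119-34269169 (+), chr11:119979066-119979116 (-), chr19:36184878-36184928 (+), chr14:105512175-105512225 (-) and chr5:139167190-139167240 (+).
CHST8 site: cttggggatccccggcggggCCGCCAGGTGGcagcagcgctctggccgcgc
TRIM29 site: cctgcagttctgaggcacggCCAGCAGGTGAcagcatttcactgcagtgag
ZBTB32 site: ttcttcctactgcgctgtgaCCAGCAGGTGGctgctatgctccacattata
GPR132 site: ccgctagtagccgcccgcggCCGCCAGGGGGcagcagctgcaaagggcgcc
PSD2 site: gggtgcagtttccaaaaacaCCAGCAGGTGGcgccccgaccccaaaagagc

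The next 2 sites were among the 4 at which STAG2 fell most, in an intron of the GTF2IRD1 pseudogene GTF2IRD1P1 at chr7:66290684-66290734 (+) and in an intron of PIWIL3 at chr22:25168685-25168735 (-).
GTF2IRD1P1 site: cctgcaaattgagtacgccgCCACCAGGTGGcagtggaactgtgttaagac
PIWIL3 site: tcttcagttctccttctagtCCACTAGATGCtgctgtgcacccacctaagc

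The next 3 were among the 4 at which STAG1 rose most, in an intron of the long noncoding RNA gene LINC02345 at chr15:38274162-38274212 (+) and between genes near MAP3K20 at chr2:174151147-174151197 (+) and SLC15A5 at chr12:16318526-16318576 (+).
LINC02345 site: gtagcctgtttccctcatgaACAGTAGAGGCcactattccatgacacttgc
MAP3K20 site: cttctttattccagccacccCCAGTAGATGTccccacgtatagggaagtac
SLC15A5 site: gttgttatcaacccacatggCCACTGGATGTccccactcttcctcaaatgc

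The last 3 lie beside melanocyte genes. They are in an intron of POLR2F next to SOX10 at chr22:38361350-38361400 (-), in an intron of KIT at chr4:55549947-55549997 (+) and in an intron of TBL1X next to GPR143 at chrX:9677195-9677245 (-).
POLR2F site: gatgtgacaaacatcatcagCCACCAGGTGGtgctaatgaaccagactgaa
KIT site: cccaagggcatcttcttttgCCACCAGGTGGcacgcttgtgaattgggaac
TBL1X site: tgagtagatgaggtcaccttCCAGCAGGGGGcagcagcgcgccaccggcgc

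The members were the strong end of the CTCF list. Since a peak in every list was required, levels are a description of the choice and carry no test. Of all CTCF peaks, 38290 (44.4%) were in all 16 lists, and 77.9% of those were distal. The members made up 45.5% of the 65540 distal CTCF peaks. When all CTCF peaks were divided into quartiles of WT CTCF fold enrichment, 96.2% of the distal sites of the strongest quartile and 2.11% of those of the weakest were members. Fold enrichment is the pileup at the summit over the expected background, with 1 added to each. Its median in WT CTCF of set 1 was 47.5 at the members and 7.26 at the other 35719 distal sites.

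Just outside the rule, 4523 distal sites were present in 15 of the 16 lists. Their median WT CTCF fold enrichment was 13.4. The list they lacked was most often STAG2-KD STAG2 of set 1, at 1805 sites (39.9%), and then WT SMC1A of set 1, at 1404 sites (31.0%). The 8 lists of set 2 together accounted for few of these sites, at most 26 for any one of them. At the other threshold, the 2 members nearest to a transcript start had their midpoints at 1001 bp and the 2 nearest sites left out had theirs at 1000 bp.

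**Figure D1:**
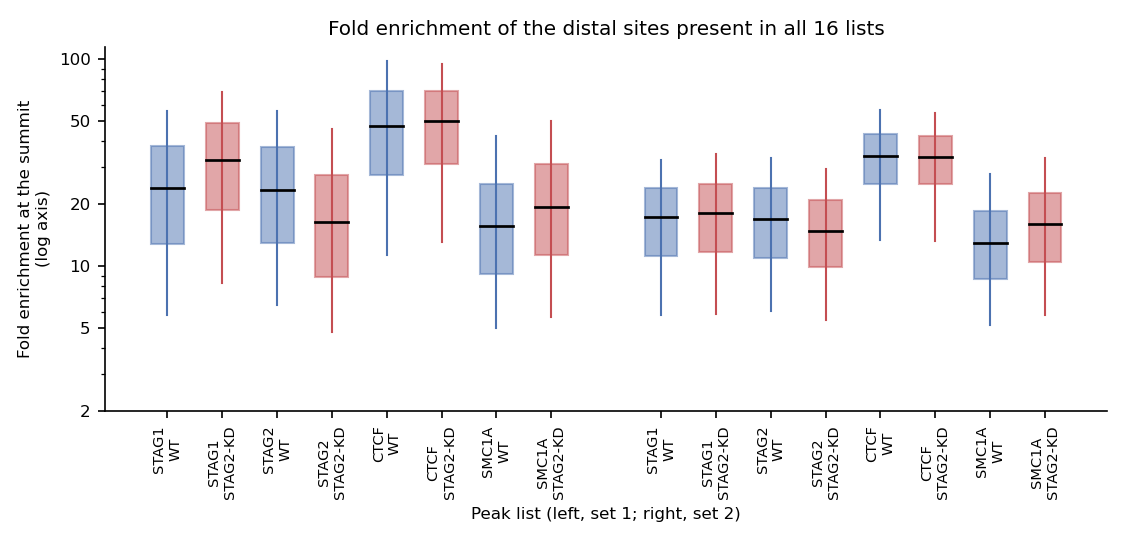
Fold enrichment of the 29821 members in each of the 16 peak lists, on a log axis, with WT lists in blue and STAG2-KD lists in red. Lines run from the 5th to the 95th percentile of sites, boxes span the quartiles and black bars mark the medians, which are highest for CTCF in both sets and, for STAG2, lower in the STAG2-KD list than in the WT list of each set.

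CTCF had the highest fold enrichment at these sites and SMC1A, a ring subunit, the lowest of the WT lists. Median WT CTCF fold enrichment was 47.5 in set 1 and 34.2 in set 2, and median WT SMC1A was 15.6 and 12.9. The STAG subunits lay between, with WT STAG1 at 23.8 and 17.2 and WT STAG2 at 23.3 and 16.9. Ranked within its own list, the median member lay between the 68.2th and the 88.0th percentile of fold enrichment, with the lowest value in STAG2-KD STAG2 of set 1. The ranking of the members was similar in both sets, with Spearman's rho between 0.80 and 0.89 over the 29821 sites for the same antibody and condition, which share no library.

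The spread among members was wide. The strongest lay 4.67 kb from CHST8, which encodes a sulfotransferase, at chr19:34268615-34269551, and had the highest mean percentile. Its WT CTCF fold enrichment was 127 in set 1 and 83.1 in set 2, and in STAG2-KD 117 and 84.5. WT STAG1 was 73.4 and 47.0 there, against 86.5 and 56.3 in STAG2-KD. WT STAG2 was 75.1 and 50.6, against 73.7 and 45.5 in STAG2-KD. All of these values were above the 95th percentile of the members in their lists. The 8 strongest sites had mean percentiles of at least 99.4, and 7 of them were intergenic, while the fourth lay in an exon of SPI1. The 4 weakest members, in RERE, LINC00486, CHRM3 and the melanocyte regulator MITF, had mean percentiles of 21.5 to 29.8 and held no CTCF motif match by either definition used below.

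The members were spread over all 23 chromosomes, from 6.90 per Mb on chromosome 21 to 14.2 per Mb on chromosome 19. Introns held 54.5% of them, intergenic sequence 38.9% and exons 6.53%, where the other distal sites had 56.9%, 35.5% and 7.66%. The 95% Wilson intervals of the intergenic shares were 38.4 to 39.5% and 35.0 to 36.0%, and these cover counting error only. The median distance to a transcript start was 10.3 kb, with quartiles of 4.26 and 25.2 kb, and 906 members lay over 100 kb away. The median distance to the nearest other member was 24.8 kb. The densest 100 kb held 10 members, with midpoints from 232466397 to 232552127 on chromosome 2, and no protein-coding gene.

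GC content within 100 bp of the CTCF summit also set the members apart from promoter sites. Its median was 46.8% at the members, 49.3% at the other distal sites and 62.2% at the 8469 promoter sites in all 16 lists. Windows 5 kb downstream of the members had a median of 42.8%.

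The CTCF motif was much more frequent at these sites than beside them. The 11-base CTCF core, searched on both strands within 100 bp of the CTCF summit, was found at 9721 members (32.6%, Wilson 95% interval 32.1 to 33.1%), with more than 1 match at 155 of them. It was found at 15.6% of the other distal sites, and in 0.701% and 0.664% of windows of the same length 5 kb upstream and downstream of the members. The commonest core words were CCAGCAGAGGG at 775 members, CCACTAGAGGG at 736 and CCACCAGAGGG at 701. A weight matrix of 19 positions, learned at the other distal sites with a threshold set at 5% of windows 5 kb away, matched 24109 members (80.8%), 55.5% of the other distal sites and 4.49% and 4.4% of the flanking windows of the members. The matrix was trained on those other distal sites, so their share is not an independent one.

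The difference in motif share went together with CTCF level. In the strongest quartile of WT CTCF, the core was found at 40.8% of the members (40.0 to 41.5%) and 44.3% of the other distal sites (40.5 to 48.1%). In the third quartile the shares were 25% and 23.6%, and in the weakest 3.62% (n = 304) and 10.8%. The matrix matched 89.2% (88.7 to 89.6%) of the members and 85.0% (82.0 to 87.5%) of the other distal sites in the strongest quartile, and 74.7% (73.9 to 75.5%) and 69.2% (68.0 to 70.3%) in the third. In the weaker quartiles the order was the other way, with 54.9% (52.7 to 57.1%) and 58.0% (57.2 to 58.8%) in the second and 33.2% (28.2 to 38.7%) and 45.5% (44.7 to 46.3%) in the weakest. Within quartiles of CTCF, a matrix match was thus somewhat more frequent at members than at the other distal sites in the upper quartiles. It was less frequent in the lower ones. Core shares went the other way in the strongest quartile, with overlapping intervals. Members and other distal sites may still differ in CTCF level within a quartile, and this was not tested.

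The position of a peak summit against the motif was not used in choosing the members. The motif was searched within 100 bp of the WT CTCF summit of set 1, which bounds the offsets of that list. At the members with exactly 1 core match (n = 9566), STAG1 and STAG2 summits lay downstream of the motif centre, read in the direction of the motif, while CTCF and SMC1A summits lay close to it. The median STAG1 offset was 21 bp in WT and 20 bp in STAG2-KD of set 1, and 18 bp in both conditions of set 2. The median STAG2 offset was 19 bp in WT and 16 bp in STAG2-KD of set 1, and 16.5 and 13 bp in set 2. CTCF medians were 2 and 1 bp in set 1 and -2 bp in both lists of set 2. SMC1A medians were 0 and 1 bp in set 1 and 4 and 5 bp in set 2. In WT STAG1 of set 1, 85.7% of the summits lay downstream, against 52.8% in WT CTCF of the same set. In set 2 the shares were 65.3% and 46.8%.

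The direction followed the motif and not the reference strand. At members with a matrix match on the plus strand, WT STAG1 summits of set 1 lay at a median of 20 bp in the direction of increasing coordinates (n = 12089), and with a match on the minus strand they lay at -22 bp (n = 12020). At the other distal sites with 1 core match the WT STAG1 medians were 17 bp in set 1 (n = 1903) and 11 bp in set 2 (n = 2943), below those of the members. The summits of set 2 were more widely scattered, and at the members with 1 core match 17.1% of WT STAG1 and 25.3% of WT CTCF summits lay within 10 bp of the motif centre, against 17.3% and 50.6% in set 1. The single sites varied too. At the TRIM29 site printed above, the set 1 summits of WT lay 18 bp downstream for STAG1, 27 bp for STAG2, 2 bp for CTCF and 5 bp for SMC1A. At the CHST8 site they all lay upstream, at -40, -12, -43 and -42 bp.

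**Figure D2:**
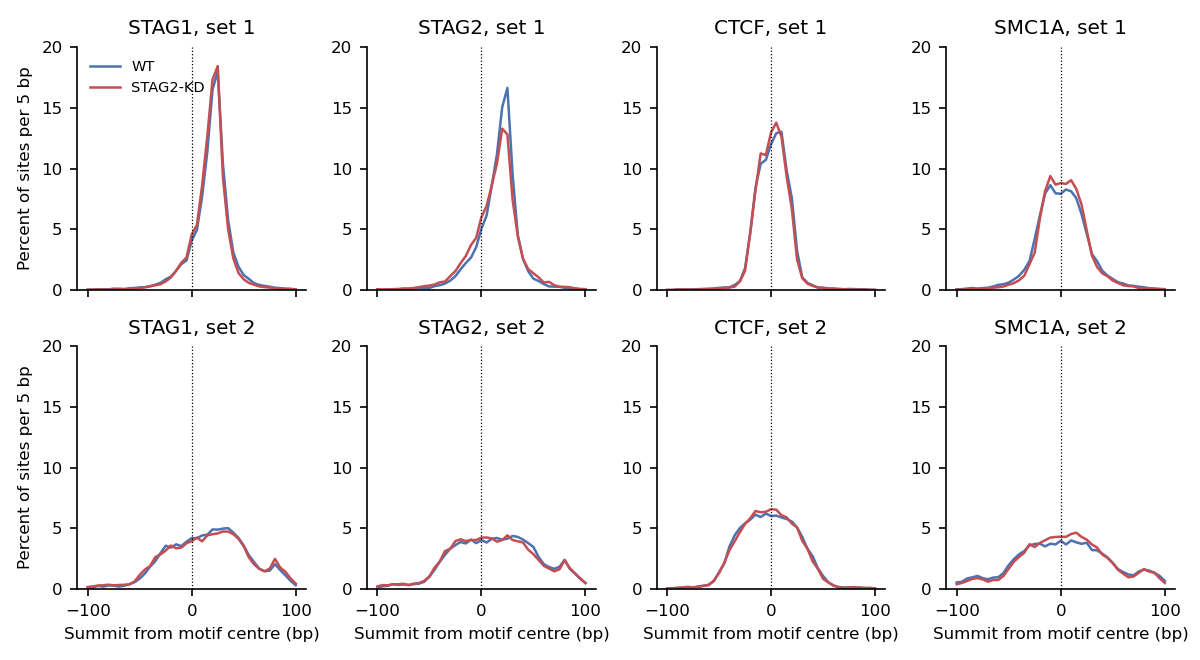
Distance in bp from the CTCF motif centre to the peak summit, read in the direction of the motif, at the 24109 members with a weight matrix match, as the percent of members per 5 bp, with WT in blue and STAG2-KD in red. The STAG1 and STAG2 curves of set 1 peak to the right of the dotted line at 0, the CTCF and SMC1A curves centre on it, and all curves of set 2 are broader.

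This offset was tested over the whole table of CTCF peaks with exactly 1 core match, with 1 median per list. The mean of the medians was 11.6 ± 7.57 bp (SD, n = 12) over the cohesin lists and -0.50 ± 1.73 bp (SD, n = 4) over the CTCF lists, a difference of 12.1 bp (two-sided exact permutation test, p = 0.00714). The cohesin lists were not alike, since the 8 STAG lists averaged 16.5 bp and the 4 SMC1A lists 1.75 bp. Within set 1 alone the difference was 11.3 bp (exact permutation p = 0.357) and within set 2 it was 12.8 bp (p = 0.0357, the smallest that 28 arrangements give). Lists of 1 antibody are not independent of each other, and the test treats them as if they were. The WT CTCF list of set 1 also placed the motif search, so its offset was not free of that choice. STAG2-KD lists differed from WT lists by -0.63 bp on average over the 8 pairs of antibody and set, a difference the exact sign-flip permutation test did not separate from 0 (p = 0.375). For STAG2 itself the median was shorter in STAG2-KD in both sets, and this pair of values was not tested.

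Neighbouring motifs at these sites were oriented differently at different distances. Consecutive members with a matrix match on a chromosome formed 24086 pairs. Over all distances, 25.3% pointed towards each other (convergent), 25.3% pointed away from each other (divergent) and 49.4% were on the same strand. Under 10 kb, 13.6% of the pairs were convergent (12.5 to 14.9%) and 29.4% divergent. From 10 to 50 kb the convergent share was 18.8%, and from 50 to 100 kb it was 26.1%. From 100 to 500 kb it was 33.4% (32.4 to 34.4%) with 19.2% divergent, and at 500 kb and over it was 35.5% (32.1 to 39.2%) with 15.9% divergent. Convergent pairs were thus the rarest class at short range and outnumbered divergent pairs beyond 100 kb. The core alone gave the same order, from 13.4% convergent under 10 kb (n = 492) to 29.1% at 500 kb and over (n = 1673).

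The other distal CTCF sites had no such trend. Among their 19786 consecutive pairs, the convergent share was 25.4% under 10 kb, 24.5% from 10 to 50 kb, 25.3% from 50 to 100 kb, 24.7% from 100 to 500 kb and 26.7% at 500 kb and over. Since these sites have less CTCF, pairs were also formed within the third quartile of WT CTCF alone. There, 16.3% of member pairs under 10 kb were convergent (12.6 to 20.8%, n = 307), against 29.7% of pairs of other distal sites (23 to 37.5%, n = 148). From 10 to 50 kb the shares were 17.9% (15.6 to 20.5%) and 25.7% (21.5 to 30.3%). From 50 to 100 kb they were 20.4% (18 to 23%) and 22.6% (18.7 to 27.2%), and from 100 to 500 kb 27.8% and 26.8%. At 500 kb and over they were 26.2% (24.2 to 28.2%) and 24.9% (22.9 to 27.0%). Within this quartile the convergent share of the members was thus lower than that of the other distal sites with separate intervals only under 50 kb. From 50 kb on the intervals overlapped. Pairs were formed only among the sites of the class compared, so other CTCF sites may lie between the motifs of a pair. Pairs share their sites with the next pair, and the difference between the classes of sites was not tested.

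**Figure D3:**
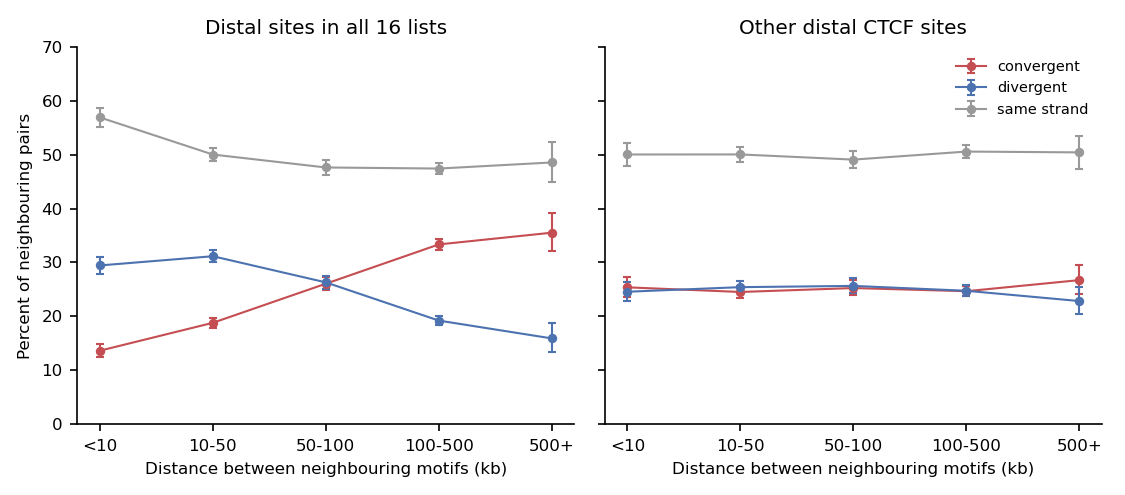
Percent of neighbouring motif pairs that are convergent (red), divergent (blue) or on the same strand (grey) by the distance between the motifs in kb, with 95% Wilson intervals as bars, for the members on the left and the other distal CTCF sites on the right. At the members the convergent share rises from 13.6% to 35.5% while the divergent share falls from 29.4% to 15.9%, and at the other distal sites both stay between 22.8% and 26.7%.

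On STAG2 knockdown the fold enrichment of STAG2 was lower at most of the members and that of STAG1 and SMC1A higher. Median STAG2 fold enrichment was 23.3 in WT and 16.3 in STAG2-KD of set 1, and 16.9 and 14.8 in set 2. The median of the log2 difference STAG2-KD minus WT was -0.45 in set 1 and -0.18 in set 2 (-0.32 ± 0.20, SD, n = 2). STAG2 was lower at 81.7% of the members in set 1 and at 65.5% in set 2, and at 59.5% in both, against 56.6% in both over all CTCF peaks with STAG2 in its 4 lists. For STAG1 the median fold enrichment was 23.8 in WT and 32.6 in STAG2-KD of set 1, and 17.2 and 18.1 in set 2, with a median log2 difference of 0.43 and 0.07 (0.25 ± 0.25). It was higher at 80.2% of the members in set 1 and at 57.1% in set 2, and at 51.8% in both, against 49.0% over all CTCF peaks with STAG1 in its 4 lists. The STAG1 value of set 2 is thus small, and the SD over the sets is as large as the mean.

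SMC1A was the steadiest between the sets. Its median fold enrichment was 15.6 in WT and 19.3 in STAG2-KD of set 1, and 12.9 and 16 in set 2, with a median log2 difference of 0.28 in both. It was higher in STAG2-KD at 70.7% of the members in set 1 and at 71.4% in set 2. In both sets it was higher at 58.1%, against 54.7% over all CTCF peaks with SMC1A in its 4 lists. The rank within the list moved less, with a median percentile of 77.1 in WT and 79.6 in STAG2-KD of set 1. In set 2 it was 87.7 and 88.0. A difference in scale between the SMC1A lists was not tested. CTCF was nearly level, at 47.5 and 50.0 in set 1 and 34.2 and 33.8 in set 2, with median log2 differences of 0.06 and -0.02. Over all CTCF peaks with the antibody in its 4 lists, the medians were -0.42 and -0.15 for STAG2, 0.42 and 0.06 for STAG1, 0.24 and 0.25 for SMC1A and 0.06 and -0.04 for CTCF. These peaks include the members, so the 2 groups are not independent. At the other distal sites with the antibody in its 4 lists, the medians were -0.41 and -0.10 for STAG2 and 0.36 and 0.02 for STAG1. They were 0.19 and 0.25 for SMC1A and 0.05 and -0.06 for CTCF. The members thus shifted in the same directions as those sites, with medians further from 0 for STAG2, STAG1 and SMC1A. The difference was not tested. Since every member kept a peak in STAG2-KD, sites that lost STAG2 altogether are not among them. In bulk cells a lower value cannot tell fewer cells with a bound site from less binding per cell.

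**Figure D4:**
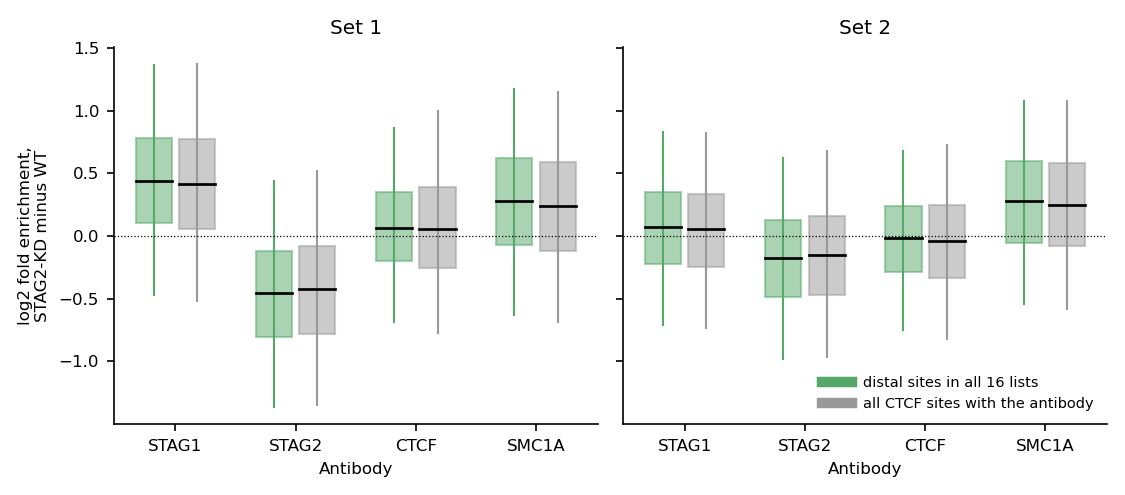
Difference in log2 fold enrichment, STAG2-KD minus WT, by antibody, with set 1 on the left and set 2 on the right, for the members (green) and for all CTCF sites with the antibody in its 4 lists (grey). The grey sites include the members. Lines run from the 5th to the 95th percentile of sites, boxes span the quartiles and black bars mark the medians, which lie below 0 for STAG2 and above 0 for STAG1 and SMC1A in both sets and nearly coincide between members and all sites.

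A site was called changed when its fold enrichment differed at least 1.5-fold in the same direction in both sets. STAG2 was called lower at 4035 members (13.5%), where the background over all CTCF peaks with STAG2 in its 4 lists was 12.4%, and higher at 302 (1.01%, background 1.51%). STAG1 was called higher at 2587 members (8.68%, background 7.95%) and lower at 386 (1.29%, background 1.46%). SMC1A was called higher at 4177 members (14%, background 12.6%) and lower at 431 (1.45%, background 1.57%). CTCF was called higher at 1023 (3.43%, background 4.1%) and lower at 873 (2.93%, background 4.19%). The shares lay near the background, somewhat above it for STAG2 lower and for STAG1 and SMC1A higher and below it for CTCF in both directions. The background includes the members, and the same lists had chosen them, so nothing more is read from these shares.

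The site at which STAG2 fell most lay in an intron of SH3BP4, at chr2:235904969-235905370, with no motif match. STAG2 fold enrichment there was 19.4 in WT and 5.17 in STAG2-KD of set 1, and 12 and 3.16 in set 2. At the PIWIL3 site printed above, in a gene of the germline PIWI family, STAG2 was 46.4 in WT and 11.6 in STAG2-KD of set 1, and 27.2 and 8.00 in set 2. CTCF fell there too, from 85.6 to 31.0 and from 48.6 to 22.6, and STAG1 from 50.7 to 23.2 and from 28.4 to 12.4. The GTF2IRD1P1 site gave the same picture, with STAG2 at 20.3 and 5.77 and at 17.0 and 4.41. GTF2IRD1P1 is a pseudogene copy, so reads there may be shared with near-identical sequence. The fourth site, in DYM, had STAG2 at 14.4 and 4.22 in set 1 and at 17.0 and 4.55 in set 2. At 3 of these 4 sites, SH3BP4 being the exception for STAG1 in set 1, all antibodies were lower in STAG2-KD in both sets.

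The site at which STAG1 rose most was the one in LINC02345. STAG1 there was 16.1 in WT and 52.7 in STAG2-KD of set 1, and 8.74 and 32.9 in set 2. CTCF rose from 17.0 to 60.7 and from 16.1 to 43.3, and SMC1A from 5.03 to 14.6 and from 4.28 to 12.7. STAG2 was also higher in STAG2-KD, at 8.20 against 4.98 and at 9.08 against 4.63. At the MAP3K20 site, near a gene for a stress-activated kinase, STAG1 was 5.32 in WT and 16.9 in STAG2-KD of set 1, and 3.46 and 11.1 in set 2. At the SLC15A5 site, near a gene of a transporter family, STAG1 was 23.2 and 73.2 in set 1 and 11.5 and 36.8 in set 2. The fourth site, near MCPH1, had 15.6 and 53.5 in set 1 and 8.88 and 28.0 in set 2. CTCF and SMC1A were higher in STAG2-KD at all 4 sites in both sets. These 8 sites were chosen for the changes given here.

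STAG2 called lower and STAG1 called higher rarely fell on the same site, at the members as over all CTCF peaks with both subunits in their 8 lists. Both groups need a peak of each subunit in both conditions, and the second includes the first. Sites that lost STAG2 altogether or newly gained STAG1 are in neither. Both calls held at 20 members (0.0671%), which is 0.496% of the members with STAG2 lower and 0.773% of those with STAG1 higher, and at 0.0864% of all CTCF peaks with both subunits in their 8 lists. At the members with STAG2 lower, the median log2 difference of STAG1 was -0.09 in set 1 and -0.37 in set 2, and that of CTCF was -0.30 and -0.45. At the members with STAG1 higher, the median log2 difference of STAG2 was 0.09 and 0.39, that of CTCF 0.45 and 0.48 and that of SMC1A 0.70 and 0.78. At the members with STAG2 lower, that of SMC1A was -0.13 and -0.19. In both groups the medians of the other antibodies thus had the sign of the called change, though some were small. Joint calls were few, since all 4 antibodies were called lower at 75 members, 1.86% of those with STAG2 lower. CTCF was not called lower at 84.4% of those with STAG2 lower. The lists of a set and condition share an input, and the part of that in these values was not tested.

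At the 873 members with CTCF lower, the median log2 difference of STAG2 was -1.25 in set 1 and -0.86 in set 2, and that of STAG1 -0.44 and -0.58. At the 1023 members with CTCF higher, that of SMC1A was 0.99 and 0.93 and that of STAG2 0.23 and 0.48. STAG2 and CTCF were both called lower at 630 members (2.11%, background 2.01%), which is 72.2% of the members with CTCF lower and 15.6% of those with STAG2 lower. Over all CTCF peaks, both were called lower at 901, STAG2 at 5685 and CTCF at 3085. A peak counted for CTCF alone need not hold STAG2, so these counts give no like background for the 72.2%. STAG1 and CTCF were both called higher at 507 members (1.70%, background 1.53%), or 49.6% of those with CTCF higher and 19.6% of those with STAG1 higher. Over all CTCF peaks, both were called higher at 754, STAG1 at 3997 and CTCF at 3019. The peaks counted for CTCF again need not hold STAG1, so there is no like background for the 49.6%. STAG2 and SMC1A were both called lower at 304 members (1.02%, background 0.963%). Changes of different antibodies in different sets, which share no library, had Spearman's rho of 0.31 to 0.46 over the members, and changes of the same antibody in both sets had 0.46 to 0.53.

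The STAG1 and STAG2 lists of a set and condition were called against the same input, so their ratio at a site was also compared. In WT its median log2 was -0.03 in set 1 and -0.01 in set 2, and in STAG2-KD 0.86 and 0.24. The median shift was 0.88 in set 1 and 0.25 in set 2 (0.57 ± 0.44, SD, n = 2), and it was above 0 in both sets at 75.4% of the members. Over all CTCF peaks with both subunits in their 8 lists the shift was 0.87 and 0.24, and it was above 0 in both sets at 72.3%. The ratio was called at least 1.5-fold higher in both sets at 4511 members (15.1%, background 15.3%) and lower at 5 (0.0168%, background 0.213%). These peaks include the members. At the other distal sites with both subunits in their 8 lists the shift was 0.99 and 0.22, and above 0 in both sets at 65.0%. At the promoter sites in all 16 lists it was 0.81 and 0.195, and above 0 in both sets at 66.1%. The size of the shift at a member was only loosely shared between the sets (Spearman's rho 0.15 over 29821 sites). The WT ratio itself had a rho of 0.66.

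The change also went with CTCF level, measured in the other set so that the values share no library. From the weakest to the strongest quartile of WT CTCF of set 2 among members, the median log2 difference of CTCF in set 1 was 0.25, 0.16, 0.04 and -0.06. That of STAG2 in set 2 by quartiles of set 1 was -0.09, -0.16, -0.20 and -0.26. SMC1A in set 2 was 0.33 in the weakest quartile and 0.18 in the strongest. In each of these cases the value was lower at the members with more CTCF. STAG1 in set 1 followed the same order, with 0.56, 0.50, 0.40 and 0.34, while in set 2 it was 0.08, 0.10, 0.09 and 0.03.

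**Figure D5:**
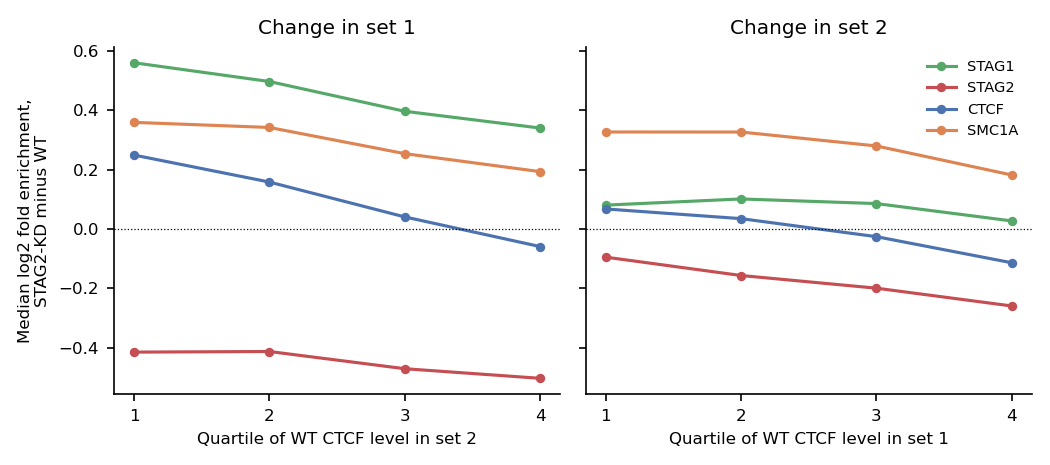
Median difference in log2 fold enrichment, STAG2-KD minus WT, of each antibody at the members, by quartile of WT CTCF fold enrichment (1 weakest, 4 strongest), with the change in set 1 on the left and in set 2 on the right and the quartiles taken from the other set. STAG2 lies below 0 and SMC1A and STAG1 above 0 in all quartiles, and CTCF passes from above to below 0.

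Genes of the tissue and of the pathways studied in these cells had members nearby about as often as other genes. Of the 16 melanocyte lineage genes listed, 13 (81.3%) had a member within 50 kb of the gene body and 6 in the body, against 84.8% and 35.8% of all 20098 protein-coding genes. Of 18 type I interferon pathway genes, 17 had a member within 50 kb and 7 in the body. The exception was IRF9, the DNA-binding subunit of the interferon-activated complex ISGF3, whose nearest member lay 52.2 kb away. CD274, which encodes PD-L1, had 2 members within 50 kb and its nearest at 7.84 kb. Of 15 genes of cohesin and its regulators 13 had a member within 50 kb, among them STAG2 itself with 6 members in its body. Of 12 loci known for CTCF control it was 8, with 5 members within 50 kb of the imprinted growth factor gene IGF2 and 8 within 50 kb of HOXD13.

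MITF, the regulator of the melanocyte lineage, held 4 members in its body. At one of them, in an intron at chr3:69841112-69841753, CTCF was 36.2 in WT and 46.4 in STAG2-KD of set 1, and 20.7 and 27.5 in set 2. STAG1 was 27.4 and 45.3 there in set 1 and 15.3 and 22.2 in set 2. Another MITF member, in an exon at chr3:69986945-69987142, did not follow it. STAG1 at that weak site was 4.84 in WT and 4.68 in STAG2-KD of set 1, and 3.71 and 2.94 in set 2. CTCF there was 4.24 and 4.06 in set 1 and 2.90 and 4.05 in set 2. At the POLR2F site printed above, 5.29 kb from the neural crest factor gene SOX10, CTCF was 51.2 in WT and 81.1 in STAG2-KD of set 1 and 23.6 and 38.2 in set 2. SMC1A was 13.9 and 21.9 there in set 1 and 7.66 and 16.7 in set 2. At the KIT site, in the gene of the stem cell factor receptor, STAG1 was 8.89 in WT and 12.2 in STAG2-KD of set 1 but 8.43 and 6.88 in set 2. At MLANA and OCA2 the values were lower in STAG2-KD. At the member in the body of MLANA, which overlaps KIAA2026 and encodes a melanosomal antigen, STAG1 was 11.6 in WT and 4.54 in STAG2-KD of set 1, and 11.1 and 3.90 in set 2. CTCF was 26.9 and 17.0 there in set 1 and 32.6 and 15.7 in set 2. At the member in OCA2, which encodes a melanosomal transport protein, CTCF was 73.4 and 54.4 in set 1 and 52.3 and 27.4 in set 2. Over the 13 members nearest to a gene of the list, STAG1, CTCF and SMC1A were all higher in STAG2-KD in both sets at 3 and all lower at 2, and STAG2 was lower in both sets at 8 and higher at 1. Counted by itself, SMC1A was higher in both sets at 8 and lower at 2, STAG1 higher at 6 and lower at 2, and CTCF higher at 5 and lower at 3. Of all members, 59.5% had STAG2 lower in both sets and 58.1% had SMC1A higher. STAG2 and SMC1A thus mostly changed at these 13 members as at the members in general. A joint direction of STAG1, CTCF and SMC1A was not shared by most of them. The difference from all members was not tested. The genes with the most members in their bodies were KAZN with 25, NTM and PDE4D with 21 each and DLG2, LSAMP and the X-linked ENSG00000250349 with 18 each, and these 6 genes are 966 to 2173 kb long.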

How the data were processed

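The data are 16 ChIP-seq peak lists of M14 cells, 2 for each of 4 antibodies and 2 conditions. Reads were aligned to hg19 (the labels name Bowtie2 for set 1 and BWA for set 2, and the study's methods bowtie2), duplicates were removed and the authors called peaks per library with MACS2 against input. The deposited lists give for each peak its fold enrichment (a ratio, taken at the summit), −log10 p and −log10 q, and an integer score derived from these. Every list of set 1 held −log10 q of at least 2, and every list of set 2 −log10 p of at least 2. The narrowest peaks were 120 bp and 150 bp. The lists hold no read counts, so depth is unknown. The background pileup recovered from fold and p differed by at most 9.88% between the conditions of an antibody and set. In WT it was the same for STAG1 and STAG2, at 1.716 in set 1 and 3.499 in set 2. It need not follow the depth of each library. List lengths were 58418 to 150282 peaks.

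Peaks on chromosomes 1 to 22 and X were matched by overlap of at least 1 bp, and of several the strongest was used. Fold changes are log2 ratios of the deposited fold enrichment, with no further pseudocount, since every member has a peak. The deposited value already holds 1 added to pileup and background, so levels of different antibodies and sets are not on 1 scale. No peak ran past the end of a GRCh37 chromosome. Transcript starts, genes and exons came from GENCODE v44 lifted to GRCh37. The core motif and a weight matrix were searched on both strands within 100 bp of the WT CTCF summit of set 1. Shares have 95% Wilson intervals, which cover counting error only. Summit offsets were compared over lists by exact permutation tests. Scripts were tested on simulated data (Python 3.11.15, numpy 2.4.6, pandas 2.3.3). Members, gene lists and tests were chosen with earlier results of these data known.

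Sites were named by rule: the 8 strongest and 4 weakest by mean percentile, the 4 with the largest STAG2 fall and the 4 with the largest STAG1 rise by the smaller change of the sets, the 2 nearest on either side of 1 kb, the member nearest to each listed gene, of which the text gives a part on melanocyte genes, the 5 genes with the most members (ties included) and the densest 100 kb. The weight matrix, the orientation within a CTCF quartile, the ratio of STAG1 to STAG2 and the joint calls were added after the data were seen. Alternatives were another overlap, threshold, list length, distance, window, annotation, anchor list and leaving out a set.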

Additional observations from a re-analysis of the deposited data

How the results depend on the processing

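The count of 29821 members stayed within 1.5 times under another overlap, a stricter q-value, equal list lengths, a 5 kb distance and set 2 peaks as the sites, and was 30421 to 43592 when 1 set was left out. The share of members with the core was 34.0% at −log10 q of at least 5, 34.4% at equal list lengths, 34.1% over whole peaks and 80.8% with the learned weight matrix, and 26.5 to 32.6% with 1 set left out. The intergenic share was 43.4% at a 5 kb distance, 52.8% with protein-coding genes only and 38.2 to 39.2% with 1 set left out. With 1 set left out the median log2 difference was 0.06 to 0.44 for STAG1, -0.45 to -0.15 for STAG2, -0.01 to 0.06 for CTCF and 0.26 to 0.28 for SMC1A, so the STAG1 value rests on set 1. SMC1A was 0.28 both at equal list lengths and at a 5 kb distance. Relative to all CTCF sites with the antibody, which include the members, the median was -0.028 for STAG2, 0.033 for SMC1A and 0.019 for STAG1.

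The offset of cohesin against CTCF summits was 11.3 to 12.8 bp with 1 set left out (exact permutation p = 0.357 without set 2 and 0.0357 without set 1). With the learned matrix it was 11.6 bp (exact permutation p = 0.0121). With the set as a replicate block it was 12.1 bp (exact permutation p = 0.00893 over 784 arrangements). The difference between STAG2-KD and WT lists, already paired by antibody and set, was -0.75 to -0.50 bp with 1 set left out. The cause of these differences was not tested.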
